A study of Mus musculus with 9 samples.

Results

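Cytosolic ribosomal protein genes were examined in peak lists of open chromatin from 3 mouse cell lines. The genes were chosen by symbol from the RefSeq gene table of GRCm38.p6, the assembly behind mm10: autosomal protein-coding genes named Rpl or Rps plus a digit, and Rpsa, Rplp0, Rplp1 and Rplp2, without the Rps6k kinases and without symbols ending in -ps. This gave 85 genes of 20665 autosomal protein-coding genes, 51 with an Rpl name and 34 with an Rps name. By symbol, 73 are the standard genes of the ribosome, and the other 12 are paralogs, retrocopies or genes that share only the start of the name (Rpl22l1, Rps27l, Rps27rt, Rpl32l, Rpl10l, Rpl36al, Rps19bp1, Rpl39l, Rpl3l, Rpl7l1, Rpl37rt and Rps23rg1). The symbol rule leaves out Fau, which encodes a ribosomal protein fused to a ubiquitin-like protein, and 4 genes of these names on the X chromosome.

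The cells were E14 mouse embryonic stem cells of the TOT2N variant. ATAC-seq, which cuts and tags open chromatin with a transposase, was done on 3 libraries of each of 3 lines. WT cells are labelled as wild type cells of this variant, and the labels do not say what the variant carries. TetR cells carry a stably integrated TetR construct, and TetR-MYBTA cells carry a TetR-MYBTA construct integrated in the same way. The tetracycline repressor, TetR, binds DNA; by its name, TetR-MYBTA joins it to a transactivation domain of the transcription factor MYB. The labels give no drug, no dose and no clone, and do not say whether the replicates were separate cultures. The p-values below then measure the spread between these libraries, which may be technical, and a difference between lines cannot be told apart from one between clones.

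The cytosolic ribosome is built from a small subunit, whose proteins are named Rps, and a large subunit, whose proteins are named Rpl or Rplp, with ribosomal RNA. The standard proteins are needed in about equal amounts, and their genes are housekeeping genes that are transcribed strongly in dividing cells. Most have short genes with GC-rich promoters without a TATA box, and their mRNAs begin with a C followed by a run of pyrimidines, the TOP element, through which their translation follows nutrient and growth signals.

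The libraries held 16.4 M to 23 M tags and 45136 to 70230 peaks of about 200 bp, TetR-MYBTA replicate 3 being the shortest list, with 5.48% of its tags in peaks against 7.44 to 9.78% in the other libraries. Of 9 embryonic stem cell marker genes on the usable chromosomes, 5 had a gene-end peak throughout the 9 libraries (Tfcp2l1, Sox2, Klf4, Fgf4 and Dppa5a), against 0 of 8 feeder fibroblast markers, 0 of 5 primitive endoderm markers and 2 of 5 trophoblast markers. By library the groups were less apart. The mean share with a gene-end peak in WT, TetR and TetR-MYBTA was 63%, 74.1% and 59.3% for stem cell markers. It was 80%, 73.3% and 60% for trophoblast markers, 50%, 37.5% and 45.8% for feeder markers and 13.3%, 33.3% and 6.67% for endoderm markers. On chromosome 8, peak positions in all 9 lists were shifted by about 181.7 kb against the RefSeq starts from roughly 13 Mb onward: of 1279 listed starts above 14 Mb, 5.24 to 8.37% per library had a peak on them as listed and 43.6 to 51% had one when read at that offset. Genes on chromosome 8 above 13 Mb, among them Rpl13, were therefore left out. Rpl13 had a gene-end peak in 0 libraries as listed and in 9 of 9 at the offset. This left 83 ribosomal protein genes, 71 of them standard, and 19685 coding genes in all. They were spread over 18 autosomes, with 14 genes on chromosome 7 and none on chromosome 19.

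Most ribosomal protein genes had open chromatin at a gene end in every line. A peak within 1 kb of either end was found for 74, 75 and 74 of the 83 genes in the WT libraries, for 74, 73 and 74 in the TetR libraries, and for 74, 73 and 70 in the TetR-MYBTA libraries. The means were 74.3 ± 0.577 genes (SD, n = 3) in WT, 73.7 ± 0.577 in TetR and 72.3 ± 2.08 in TetR-MYBTA, so the 3 lines overlapped and their means lay within about 2 genes of each other. Expressed as a share, these were 89.6%, 88.8% and 87.2% of the ribosomal protein genes, against 58.8 ± 0.458%, 59 ± 1.14% and 54.1 ± 2.18% of all placed coding genes.

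**Figure D1:**
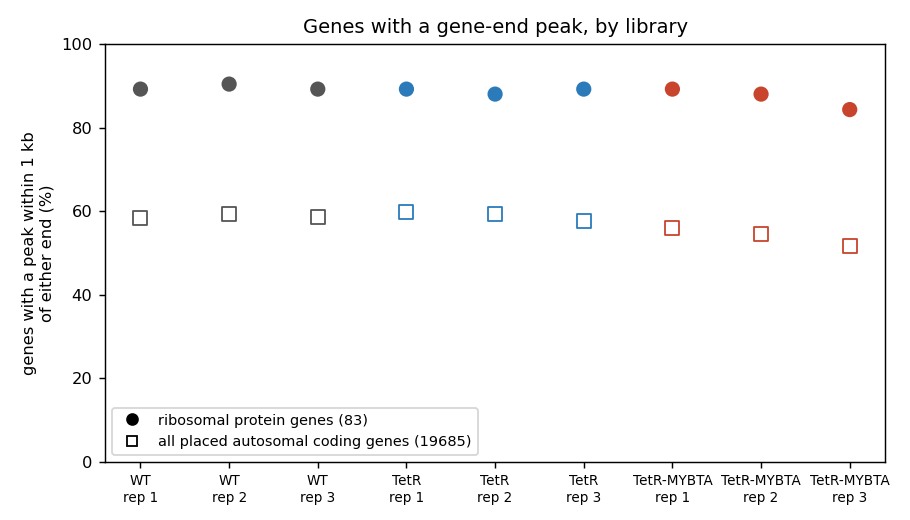
Percent of genes with an ATAC-seq peak within 1 kb of either gene end (vertical axis) in each of the 9 libraries (horizontal axis; grey WT, blue TetR, red TetR-MYBTA). Filled circles are the 83 ribosomal protein genes, from 84.3 to 90.4%, and open squares all 19685 placed coding genes, from 51.7 to 59.9%; TetR-MYBTA replicate 3 is lowest in both.

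The same 68 genes (81.9%) carried such a peak in all 9 libraries, against 47.2% of all coding genes, 7 (8.43%) carried none in any library, against 34.1%, and 8 (9.64%) carried one in some libraries, against 18.7%. Among standard genes the share with a peak in all 9 libraries was 62 of 71 (87.3%), and among the other genes it was 6 of 12. No ribosomal protein gene had a peak in every library of one group and in none of another. This held for 0 of 83 in each of 4 comparisons, beside 0.62% of all coding genes where TetR-MYBTA was set against the 6 remaining libraries, 1.54% for TetR-MYBTA against TetR, 1.51% for TetR-MYBTA against WT and 0.676% for TetR against WT. No test was made of these counts.

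The accessible site lay at the start of the gene. For 64 placed genes RefSeq lists a transcription start, and the start-side end carried a peak in 54 of 64 genes in each WT library, in 53.7 ± 0.577 in TetR and in 52.7 ± 1.15 in TetR-MYBTA, against 56.3%, 56.4% and 51.9% of all genes with a listed start. Of these genes 49 had the start-side peak in all 9 libraries (76.6%, against 45.8% of all genes with a listed start). Only 5 had a separate peak at the far end in all 9 (7.81%, against 3.55%). Taking any listed start, 53 of 64 genes had a peak there in all 9 libraries (82.8%, against 49.8% of all genes), and among the standard genes 47 of 52 did (90.4%). As the median of the 9 libraries, the peak centre lay upstream of the nearest listed start in 46 of the 53 genes (86.8%, against 75.2% of all genes). In the median gene it lay 46 bp upstream, with quartiles at -87 and -23 bp. Over all genes the median was also close to this, at -45 bp, but the positions were wider: 88.7% of ribosomal protein genes and 76.4% of all 7817 genes with a peak centre within 1 kb of a start in all 9 libraries had the peak centre within 150 bp of a start. The position repeated between libraries with a median SD of 24 bp in ribosomal protein genes and 30 bp in all genes.

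**Figure D2:**
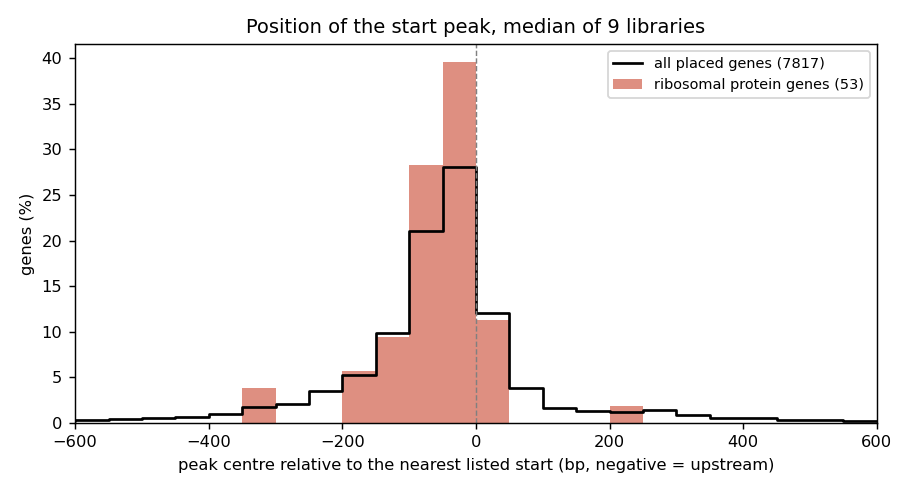
Distance of the peak centre from the nearest listed transcription start (horizontal axis, bp, negative is upstream; median of 9 libraries) against the percent of genes per 50 bp bin (vertical axis), for 53 ribosomal protein genes (red bars) and 7817 placed genes (black line) with a peak centre within 1 kb of a listed start in all 9 libraries. Both peak just upstream of the start, and 88.7% of the red distribution lies within 150 bp of it, against 76.4% of the black one.

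Sequences at the start are shown for genes at the extremes of the data, so that the open and the peak-free promoters can be read side by side. Rpl15 and Rpl37 had the best-placed peaks of all ribosomal protein genes. Rpl15, a large-subunit protein, is at chr14:18267823-18270986 on the minus strand, and Rpl37, a zinc-binding large-subunit protein, at chr15:5116613-5119140 on the plus strand. A peak overlapped the printed window of both in 9 of 9 libraries. Rps25, a standard small-subunit gene at chr9:44407714-44410406, had a peak on its window in 0 of 9 libraries. Rpl39l, a paralog of the X-linked Rpl39 known from the male germ line, at chr16:10170197-10174911, had one in 7 of 9. Rps27 and its retrocopy Rps27rt, an intronless copy on chromosome 9, had one in 9 and in 0 libraries. Each sequence runs 5′ to 3′ on the gene's strand from 250 bases before a RefSeq start through the first 15 transcribed bases, 265 bases in all, as RefSeq gives it for GRCm38.p6; capitals mark the GC box GGGCGG, the ETS-family sequence CCGGAAG, the YY1 sequence AAGATGGC, the MYB sequences AACNGNC and CAACTG, each on either strand, and a TOP-like C plus 4 pyrimidines at the first base.
Rpl15 (chr14:18270972-18271236, minus strand): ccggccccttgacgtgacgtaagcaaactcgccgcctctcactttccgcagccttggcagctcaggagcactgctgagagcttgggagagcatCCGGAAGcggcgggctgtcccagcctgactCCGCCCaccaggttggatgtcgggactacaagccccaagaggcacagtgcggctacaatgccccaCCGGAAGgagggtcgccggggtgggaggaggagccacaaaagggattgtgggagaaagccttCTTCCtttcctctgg
Rpl37 (chr15:5116363-5116627, plus strand): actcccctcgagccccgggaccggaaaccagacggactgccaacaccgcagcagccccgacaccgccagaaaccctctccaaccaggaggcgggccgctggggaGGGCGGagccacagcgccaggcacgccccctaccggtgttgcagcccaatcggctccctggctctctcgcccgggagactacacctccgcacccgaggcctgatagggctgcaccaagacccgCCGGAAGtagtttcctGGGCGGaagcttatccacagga
Rps25 (chr9:44407464-44407728, plus strand): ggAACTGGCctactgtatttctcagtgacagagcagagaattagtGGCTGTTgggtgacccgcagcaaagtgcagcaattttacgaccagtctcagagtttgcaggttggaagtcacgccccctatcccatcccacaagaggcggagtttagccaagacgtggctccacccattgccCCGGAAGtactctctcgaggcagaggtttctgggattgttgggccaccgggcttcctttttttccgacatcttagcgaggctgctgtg
Rpl39l (chr16:10169978-10170242, plus strand): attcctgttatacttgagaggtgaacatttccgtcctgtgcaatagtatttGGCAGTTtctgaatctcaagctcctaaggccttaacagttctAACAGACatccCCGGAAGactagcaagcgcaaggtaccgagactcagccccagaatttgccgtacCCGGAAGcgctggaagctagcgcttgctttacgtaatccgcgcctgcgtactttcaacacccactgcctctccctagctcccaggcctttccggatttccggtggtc
Rps27 (chr3:90213634-90213898, minus strand): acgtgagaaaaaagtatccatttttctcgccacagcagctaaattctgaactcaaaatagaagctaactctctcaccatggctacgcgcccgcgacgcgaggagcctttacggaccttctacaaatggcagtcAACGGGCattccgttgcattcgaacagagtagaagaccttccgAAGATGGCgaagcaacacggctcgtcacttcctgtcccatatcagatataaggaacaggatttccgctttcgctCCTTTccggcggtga
Rps27rt (chr9:114982725-114982989, minus strand): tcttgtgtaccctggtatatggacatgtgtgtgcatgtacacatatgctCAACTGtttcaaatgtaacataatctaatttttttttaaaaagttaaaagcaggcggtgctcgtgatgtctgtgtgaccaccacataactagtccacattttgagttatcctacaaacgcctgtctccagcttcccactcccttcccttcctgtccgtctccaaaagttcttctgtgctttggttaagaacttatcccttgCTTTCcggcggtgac

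In these windows Rpl15 holds CCGGAAG at 2 places and 1 GC box, Rpl37 holds CCGGAAG once and GGGCGG at 2 places, and Rps25 holds CCGGAAG once although no library had a peak there. The Rps27 and Rps27rt windows both hold the TOP-like start, Rps27 also holds AAGATGGC, and Rps27rt holds neither AAGATGGC, CCGGAAG nor a GC box. Over 77 listed start windows of 65 ribosomal protein genes, CCGGAAG on either strand was found in 31.2%, against 10.5% of 20085 windows of all genes. CTCGCGAG was found in 10.4% against 1.1%, TGACGTCA (the cAMP response element) in 6.49% against 2.22%, AAGATGGC in 5.19% against 1.8% and CACGTG (the E-box) in 10.4% against 7.19%. GGGCGG was in 50.6% against 44.7%, and TATAAA, the TATA box, in 5.19% against 12.1%. The MYB sequence AACNGNC was in 31.2% of the ribosomal windows and in 28.5% of all windows, and CAACTG in 3.9% and 10.7%. A C plus 4 pyrimidines exactly at the listed first base was found in 19.5% of ribosomal windows and 2.23% of all windows, and within 10 bases of it in 54.5% and 31.4%, a distance chosen after the exact share was seen. Windows of one gene overlap, GGGCGG matches can overlap each other, and a match describes letters in the window, not a bound site. The median GC content was 57.7% in ribosomal windows and 56.2% in all windows, and the median ratio of observed to expected CpG was 0.863 and 0.559.

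Of the 7 genes with no gene-end peak in any library, 3 had a peak at or inside the gene. Rps2, a core small-subunit protein gene at chr17:24718121-24721927, and Rps27l, a paralog of Rps27 known as a p53 target, at chr9:66944624-66949522, had a peak at a listed RefSeq start within the gene span in all 9 libraries, 1.76 kb and 1.32 kb from the nearer gene end. Rpl17, a large-subunit gene on chromosome 18, had a peak inside the gene in all 9 libraries, 1.42 kb from the nearer end, and no start is listed for it here. The other 4 had none inside: the nearest peak lay at a median of 3.12 kb for Rps27rt, 8.98 kb for Rpl37rt, 11.1 kb for Rpl32l and 25.2 kb for Rps19bp1, which encodes a binding partner of Rps19 and not a ribosomal protein. These 4 are retrocopies, copies or a partner gene and not standard ribosomal genes.

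Among the 8 genes with a gene-end peak in some libraries, Rps25 and Rpl19 had one in a single library. Rps25 had it in WT replicate 2, at percentile 19.3 of that list, and in the other 8 libraries the nearest peak was more than 7 kb away. It was the one standard gene on the usable chromosomes without a recurrent peak at or inside the gene. Rpl19, a large-subunit gene, had a gene-end peak in TetR replicate 3 alone and a peak at a listed start inside its span in all 9 libraries. Rpl22, Rpl38, Rpl8 and Rps10 lacked the peak only in TetR-MYBTA replicate 3, the shortest list, and Rpl6 lacked it only in TetR-MYBTA replicate 2. Rpl22 had a peak at a listed start and a peak inside the gene in all 9 libraries, and 0 libraries had one at its start-side end. Its nearest peak lay 0.812 to 1.22 kb from a gene end, on both sides of the 1 kb limit. In Rps10 the peak stood at percentiles 66.5, 74.1 and 72.9 in WT, 44.9, 15.6 and 32.1 in TetR, and 33 and 27.2 in the TetR-MYBTA libraries that had it. The WT libraries were thus all above the others for this gene, which did not enter the test because of its absent value. Rpl39l lacked the peak in TetR replicates 2 and 3; in the 7 libraries that had it, its place ranged from percentile 0.0989 to 43.2, below the middle of every list.

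The lists carry one graded value, the row order, here given as a percentile with 100 for the first row; the headers do not say what ranks the rows. Among genes with a gene-end peak in all 9 libraries, the mean percentile of the best-placed peak had a median of 81.3 over the 68 ribosomal protein genes, with quartiles 74.7 and 91.4, and 82.2 over all 9285 such genes, with quartiles 67.2 and 91.8. Among these genes the medians were alike, and the lower quartile of the ribosomal protein genes lay higher. Over every gene with a gene-end peak in a given library, the median place was 86.4 ± 1.3 (SD, n = 3) for ribosomal protein genes and 81.2 ± 0.751 for all genes in WT, 83 ± 0.808 and 78.4 ± 1.79 in TetR, and 80 ± 2.36 and 75.5 ± 1.87 in TetR-MYBTA. The range ran from 46.8 to 99.3. The highest included Rpl15 at 99.3, Rpl37 at 98.9, Rps29 at 98.5 and Rps27a, whose protein is made as a fusion with ubiquitin, at 97.5. The 5 lowest were Rpl12 at 46.8, Rpl35a at 56.5, Rpl7l1 at 61.9, Rps16 at 64.5 and Rps24 at 65.9.

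Rpl37 stood at 98.7, 99.4 and 98.8 in WT, 98.9, 98.8 and 98.6 in TetR, and 99.2, 99 and 98.9 in TetR-MYBTA, and the lines overlapped. Rps29, a small-subunit protein, stood at 98.9, 98.7 and 99 in WT, 97.8, 97.6 and 97.6 in TetR, and 99.2, 99 and 98.5 in TetR-MYBTA. All 3 TetR libraries were below the other 6 for Rps29. TetR-MYBTA minus TetR was 0.40 ± 0.14 (SE; limma, adjusted p = 0.0884), and ranked within its chromosome it was 0.67 (limma, adjusted p = 0.033). Rpl12, a large-subunit stalk-base protein, stood at 54.3, 75.1 and 60.6 in WT, 51, 7.22 and 38.9 in TetR, and 43.2, 46.2 and 44.5 in TetR-MYBTA. Its WT libraries were above the other 6, and the TetR libraries spread widely.

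**Figure D3:**
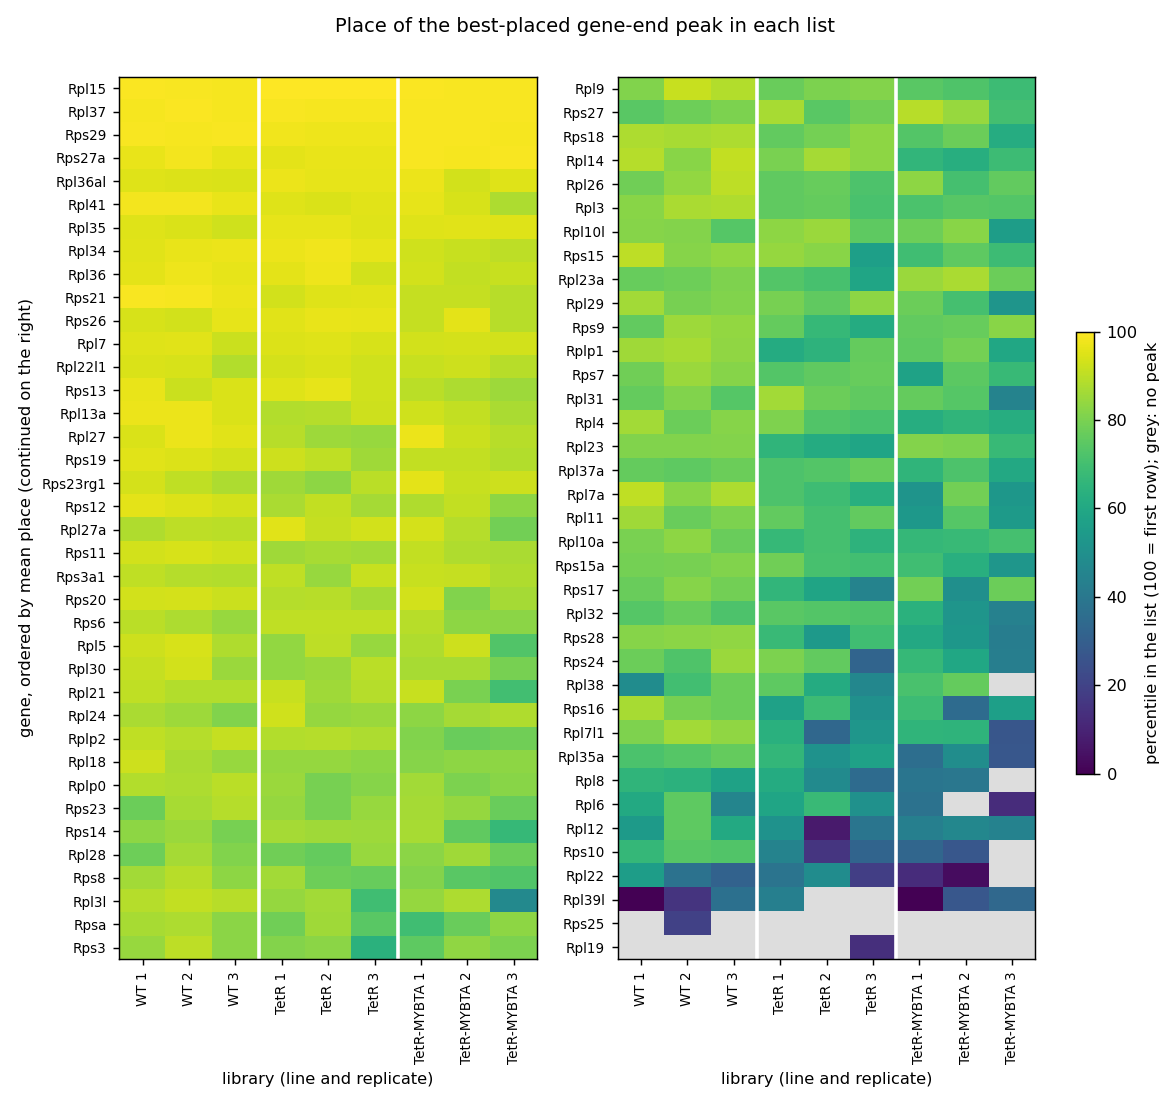
Percentile of the best-placed gene-end peak (colour, 100 is the first row of a list, grey means no peak) for 75 of the 76 placed ribosomal protein genes with such a peak in at least 1 library (rows, by mean place) in the 9 libraries (columns, WT, TetR and TetR-MYBTA separated by white lines). The upper genes, led by Rpl15 and Rpl37, have similar colours in every library. The colour scale is too coarse to show small line differences such as those of Rpl15 and Rps29. The absent values are those of Rps25, Rpl19, Rpl39l, Rpl6, Rpl22, Rpl38, Rpl8 and Rps10.

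Lines were compared on this place with limma, on normal scores of each gene's rank among the 9285 genes, with Benjamini-Hochberg adjustment over all of them, so a difference says that a gene moved relative to the other genes. In TetR-MYBTA against the other 6 libraries, 4 ribosomal protein genes stood higher (Rpl23, Rpl23a, Rps23rg1 and Rps27a), beside 7.85% of all genes, and 2 stood lower (Rpl34 and Rps21), beside 4.37%. Against TetR alone, 6 stood higher (also Rpl27 and Rps9), beside 6.76%, and 2 lower (Rpl15 and Rpl34), beside 4.14%. Against WT alone, 2 stood higher (Rpl23a and Rps27a), beside 8.64%, and 3 lower (Rpl35a, Rps21 and Rps28), beside 5.49%. In TetR against WT, 1 stood higher (Rpl15), beside 6.72%, and 4 lower (Rpl23, Rpl27, Rpl7l1 and Rps28), beside 5.59%. Out of 68 genes these are 5 to 8 per comparison, or 8.82%, 11.8%, 7.35% and 7.35% in the order given, beside 12.2%, 10.9%, 14.1% and 12.3% of all genes. These comparisons share libraries and are not independent of each other. Leaving out 1 library moved several of the counts, and the shares over all genes are not given for those settings. The 6 calls against the other 6 libraries became 2, 3 and 3 without TetR-MYBTA replicates 1, 2 and 3. The 8 against TetR became 2 without TetR replicate 2 and 3 to 5 without each of TetR replicates 1 and 3, WT replicates 2 and 3 and the 3 TetR-MYBTA replicates. The 5 against WT became 0, 3 and 1 without WT replicates 1, 2 and 3 and 2 without TetR-MYBTA replicate 1. The 5 in TetR against WT became 3, 2 and 3 without WT replicates 1, 2 and 3, 3 without TetR replicate 1 or 2, and 8 without TetR-MYBTA replicate 2. The median difference over the 68 genes was -0.02 for TetR-MYBTA against the other 6 libraries (-0.03 over all genes) and 0.06 against TetR (-0.03). It was -0.10 against WT (-0.04) and -0.20 for TetR against WT (-0.01). In the same order 37, 29, 42 and 45 of the 68 genes were below 0, beside 5043, 4951, 4944 and 4774 of all 9285 genes.

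The split of the calls depended on the scale. The log2 scale took the log2 of the row number, not of the percentile, with the sign turned so that higher means nearer the first row. It was not adjusted for list length. On it the median of all genes was shifted by -0.27, -0.07, -0.42 and -0.36 in the same 4 comparisons. On that scale 4 ribosomal protein genes were higher and 9 lower in TetR-MYBTA against the remaining 6 libraries, beside 7.3% and 16.5% of all genes. Against TetR these were 6 and 3, beside 8.33% and 6.45%, and against WT 1 and 20, beside 6.33% and 27.6%. In TetR against WT they were 1 and 26, beside 4.1% and 23%, and the calls in both directions came to 39.7% of the ribosomal protein genes and 27.1% of all genes; this difference was not tested. The median ribosomal protein gene in TetR against WT was at -0.62 on this scale, a value that includes the shift, beside -0.36 over all genes. Ranked within each chromosome, 1 was higher (Rps29) and 0 lower in TetR-MYBTA against the remaining 6 libraries, beside 2.28% and 1.43% of all genes. Against TetR 1 was higher (Rps29) and 1 lower (Rpl15), beside 1.53% and 1.41%, and against WT 0 were higher and 1 lower (Rps21), beside 5.25% and 2.47%. In TetR against WT 1 was higher (Rpl15) and 2 lower (Rps21 and Rpl7l1), beside 5.64% and 3.97%.

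Genes on chromosome 11 made up most of the higher places in TetR-MYBTA. Rps27a (chr11:29545842-29548040) stood at percentiles 96.6, 98.2 and 96.1 in WT, 96, 96.8 and 96.5 in TetR, and 99.2, 98.8 and 99.2 in TetR-MYBTA, so that every TetR-MYBTA library was above the other 6. The difference in normal score was 0.70 ± 0.14 (SE, n = 3 against 6; limma, adjusted p = 0.0114). Rpl23a (chr11:78180935-78183584), a large-subunit protein at the exit of the peptide tunnel, stood at 76.6, 77.9 and 80.7 in WT, 73.1, 70.8 and 58.9 in TetR, and 85.1, 87.4 and 77.4 in TetR-MYBTA. TetR-MYBTA replicate 3 fell within the WT range there; the difference was 0.80 ± 0.14 (limma, adjusted p = 0.00667). Rpl23 (chr11:97777526-97782439), a large-subunit protein that also binds the p53 regulator Mdm2, stood at 80.9, 81.2 and 81.4 in WT, 65.6, 61.6 and 58.8 in TetR, and 81.3, 80.1 and 67.2 in TetR-MYBTA. Its TetR libraries were below the other 6, and TetR-MYBTA against TetR gave 0.91 ± 0.15 (limma, adjusted p = 0.00571). All 5 ribosomal protein genes tested on chromosome 11 had positive differences in TetR-MYBTA against the other 6 libraries, with a median of 0.54, and all 784 tested genes of that chromosome had a median of 0.51, with 764 of 784 positive. Ranked within the chromosome, Rps27a, Rpl23a and Rpl23 differed by 0.31, 0.29 and 0.04 with limma adjusted p of 0.205, 0.229 and 0.875, so no call remained on that scale. The call of Rpl23 against the other 6 libraries also ended without TetR-MYBTA replicate 1, without replicate 2, and on the log2 scale.

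**Figure D4:**
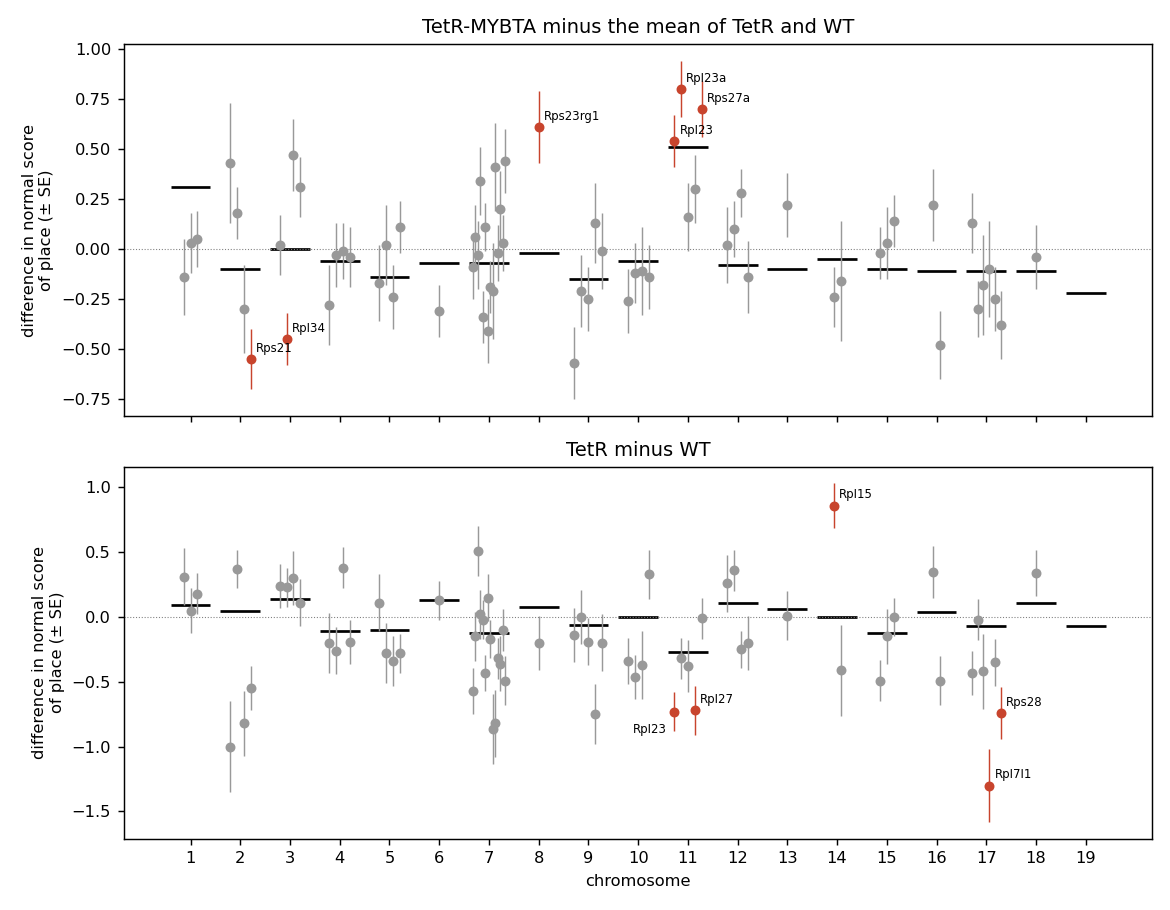
Difference in the normal score of the place of the gene-end peak (vertical axis, ± SE) for the 68 ribosomal protein genes, by chromosome (horizontal axis), for TetR-MYBTA minus the mean of TetR and WT (top) and TetR minus WT (bottom); red genes have a limma adjusted p under 0.05, and black lines are medians of all tested genes on the chromosome. In the top panel the chromosome 11 genes are all above 0, as is the median of their chromosome at 0.51; in the bottom panel Rpl15 stands alone above the rest at 0.86.

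Off chromosome 11, Rpl15 and Rps21 each had 1 contrast that held over nearly every setting and 1 that did not. Rpl15 stood at percentiles 99.3, 98.9 and 98.8 in WT, 99.7, 99.9 and 99.8 in TetR, and 99.3, 99.2 and 99 in TetR-MYBTA, with all TetR libraries above the other 6. The TetR-minus-WT difference was 0.86 ± 0.17 (SE, n = 3 against 3; limma, adjusted p = 0.0125), and it passed in 17 of 17 alternatives, with adjusted p from 2.52e-05 to 0.0459. TetR-MYBTA minus TetR was -0.67 ± 0.17 (limma, adjusted p = 0.0317) and passed in 11 of 17, being lost with the replicate block, without TetR replicate 2 or 3 and without any TetR-MYBTA replicate, up to 0.108. Rps21 (chr2:180257379-180258444), a small-subunit protein, stood at 98.9, 98.7 and 97.2 in WT, 93.2, 95.2 and 95.7 in TetR, and 91.3, 91.3 and 89.1 in TetR-MYBTA. The 3 lines did not overlap, and TetR-MYBTA minus WT was -0.82 ± 0.17 (limma, adjusted p = 0.0144), which passed in 16 of 17 alternatives and reached 0.0527 without WT replicate 1. Its difference from the other 6 libraries, -0.55 ± 0.15 (limma, adjusted p = 0.0375), passed in 8 of 17 and reached 0.0976. It was lost without WT replicate 1 or 2, TetR replicate 2 or 3 or any TetR-MYBTA replicate, with the replicate block and within the chromosome. Rpl34 (chr3:130726827-130730398), a large-subunit protein, stood at 95.5, 96.6 and 97.2 in WT, 97.1, 98 and 96.1 in TetR, and 92.8, 91.7 and 90 in TetR-MYBTA. All TetR-MYBTA libraries were below the other 6, by 0.45 ± 0.13 in normal score (limma, adjusted p = 0.0443). The call was lost without any 1 of the 9 libraries, with the replicate block and within the chromosome. Its limma adjusted p reached 0.11 over all alternatives.

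Rpl7l1 (chr17:46773907-46782656), a nucleolar paralog of Rpl7 that works in ribosome assembly, showed the largest difference among the called genes. It stood at 80.8, 86.3 and 83.5 in WT, 63.4, 33.4 and 52.7 in TetR, and 65.6, 64.9 and 26.8 in TetR-MYBTA, with all WT libraries above the other 6. TetR minus WT was -1.30 ± 0.28 (limma, adjusted p = 0.0153), which reached 0.0523 without WT replicate 2. Rps28 (chr17:33823036-33824562), a small-subunit protein, also had all WT libraries above the other 6, with 81.7, 82.7 and 83.5 in WT, 67.9, 53.9 and 69.4 in TetR, and 60.3, 52.9 and 42.4 in TetR-MYBTA. Its differences from WT were -0.74 ± 0.20 in TetR and -0.75 ± 0.20 in TetR-MYBTA (limma, adjusted p = 0.0352 and 0.031). Both calls were lost within the chromosome and without WT replicate 1, 2 or 3. The first was also lost without TetR replicate 1 or 2 and the second without any TetR-MYBTA replicate. Rpl35a, a large-subunit protein, was at 73.9 ± 2.43 (SD, n = 3) in WT, 58.2 ± 7.66 in TetR and 37.3 ± 11 in TetR-MYBTA, and TetR-MYBTA minus WT was -0.72 ± 0.19 (limma, adjusted p = 0.0311). The Rpl35a call was lost without any 1 of the WT replicates or of TetR-MYBTA replicates 1 and 3, with the replicate block and within the chromosome. Its direction turned at a distance of 2.5 kb, with limma adjusted p up to 0.991. Rps9 and Rps23rg1, a retrotransposed relative of Rps23, differed from TetR in TetR-MYBTA by 0.68 ± 0.19 and 0.71 ± 0.21 (limma, adjusted p = 0.0402 and 0.0479), and Rpl27 by 0.66 ± 0.19 (limma, adjusted p = 0.0474). Rpl27 lies on chromosome 11, where all tested genes had a median of 0.60 in this comparison, and within the chromosome its difference was 0.05 (limma, adjusted p = 0.917). Each of these 3 calls was lost when single libraries were left out, with the replicate block and within the chromosome. The Rps9 call was also lost on the log2 scale, and the Rps23rg1 and Rpl27 calls at 0.5 kb. Rps9 lost its call without WT replicate 2 or 3, TetR replicate 2 or 3, or TetR-MYBTA replicate 2 or 3. Rps23rg1 lost it without WT replicate 2 or 3, TetR replicate 1 or 2, or any TetR-MYBTA replicate, and Rpl27 lost it without any WT or TetR replicate or TetR-MYBTA replicate 1 or 2.

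Genes of protein synthesis and of the proteasome, which degrades proteins, gave a scale for these values. A gene-end peak was present in all 9 libraries in 59 of 76 mitochondrial ribosomal protein genes (77.6%), 28 of 37 proteasome subunit genes (75.7%), 32 of 35 translation factor genes (91.4%) and 29 of 33 ribosome assembly genes (87.9%), beside 68 of 83 cytosolic ribosomal protein genes. Among those with a constant peak, the median place was 81.7 for the mitochondrial ribosomal and the proteasome genes, 87.2 for translation factors and 85.9 for ribosome assembly, beside 81.3. The TetR-minus-WT median was 0.02 for mitochondrial ribosomal genes (3 higher and 7 lower of 59), -0.01 for proteasome genes (1 and 2 of 28), -0.35 for translation factors (0 and 6 of 32) and -0.19 for ribosome assembly (1 and 1 of 29), beside -0.20 for the cytosolic ribosomal protein genes. Over all genes, 6.72% were higher and 5.59% lower in TetR against WT. With TetR-MYBTA set against the other 6 libraries, 7 of 59 mitochondrial ribosomal genes were higher and 0 lower. For proteasome genes the calls were 1 and 1 of 28. For translation factors they were 1 and 1 of 32, and for ribosome assembly 2 and 1 of 29. Beside these, 7.85% of all genes were higher and 4.37% lower. These groups were not ranked within each chromosome. Differences between these groups were not tested.

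Fewer peaks lay around the ribosomal protein genes in TetR-MYBTA, as around genes in general. Within 50 kb of any of the 83 genes there were 519, 519 and 533 different peaks in WT, 572, 548 and 516 in TetR, and 465, 448 and 373 in TetR-MYBTA, with means of 524 ± 8.08, 545 ± 28.1 and 429 ± 49 (SD, n = 3). All TetR-MYBTA libraries were below the other 6, at 0.802 times their mean. As a percent of all autosomal peaks, which allows for list length, the means were 0.903 ± 0.0507 in WT, 0.874 ± 0.0348 in TetR and 0.821 ± 0.0251 in TetR-MYBTA, a ratio of 0.925. On this percent the groups overlapped: TetR-MYBTA replicate 3 stood at 0.85, above WT replicate 2 and TetR replicate 1, each at 0.846. A single gene had on average 6.64 ± 0.118 peaks in its window in WT, 6.91 ± 0.346 in TetR and 5.42 ± 0.618 in TetR-MYBTA, against 5.53, 5.9 and 4.67 for all genes. The ratio of these averages was 1.2 ± 0.0551, 1.17 ± 0.0321 and 1.16 ± 0.0115, so the windows of ribosomal protein genes and of all genes held fewer peaks in TetR-MYBTA in much the same proportion. The windows of ribosomal protein genes also held more neighbours, with a median of 6 ends of other genes within 50 kb against 4. Each window includes the gene itself. The median gene length was 3269 bases for ribosomal protein genes and 17439 for all genes. Windows therefore differ in size, here and in the counts by gene below.

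By gene, the peak count in the 50 kb window was lower in every TetR-MYBTA library than in each of the other 6 for 7 of 83 genes (8.43%), against 11.3% of all genes, and higher for 0, against 0.777%. Against TetR alone it was lower for 25 genes (30.1%), against 23.7%, and higher for 0, against 1.56%; against WT alone it was lower for 18 (21.7%), against 18.7%, and higher for 0, against 2.27%. In TetR against WT it was higher for 8 genes (9.64%), against 8.27%, and lower for 4 (4.82%), against 3.19%. All these shares were near the background. A count without overlap can only grow when a library is left out, and the shares over all genes are not given for those settings. The 7 genes became 14, 16 and 11 without TetR-MYBTA replicate 1, TetR-MYBTA replicate 2 and WT replicate 2. The 18 became 28 without TetR-MYBTA replicate 1. The 12 of TetR against WT became 19, 19 and 22 without TetR replicate 1, TetR replicate 3 and WT replicate 3.

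The 7 genes were Rpl14, Rpl22, Rpl3, Rpl35a, Rps19, Rps21 and Rps27rt. Around Rpl14, a large-subunit gene at chr9:120571517-120574653, there were 8, 10 and 8 peaks in WT, 8, 5 and 6 in TetR, and 4, 3 and 3 in TetR-MYBTA. Around Rpl22, whose protein also binds structured RNAs, there were 13, 9 and 11 in WT, 11, 9 and 9 in TetR, and 8, 5 and 4 in TetR-MYBTA. Around Rpl3, which lies near the peptidyl transferase centre, there were 7, 7 and 9 in WT, 9, 6 and 5 in TetR, and 3, 3 and 4 in TetR-MYBTA. Rps21 had 9, 7 and 9 peaks in WT, 12, 10 and 10 in TetR, and 6, 5 and 6 in TetR-MYBTA, and it was also among the genes higher in TetR than in WT. Rps19, a small-subunit gene mutated in Diamond-Blackfan anaemia, had 8, 8 and 11 in WT, 7, 7 and 7 in TetR, and 6, 6 and 4 in TetR-MYBTA, one of the 4 genes lower in TetR than in WT. Rps27rt had no peak at its own ends, so the 4 to 7 peaks in its window belong to its surroundings. In TetR against WT, Rpl34 had 6, 6 and 6 peaks in WT and 9, 9 and 8 in TetR, while the neighbours Rps2 and Rpl3l, which share most of one window, had 11, 10 and 11 and 9, 9 and 10 in WT and 8, 7 and 8 and 7, 6 and 6 in TetR.

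**Figure D5:**
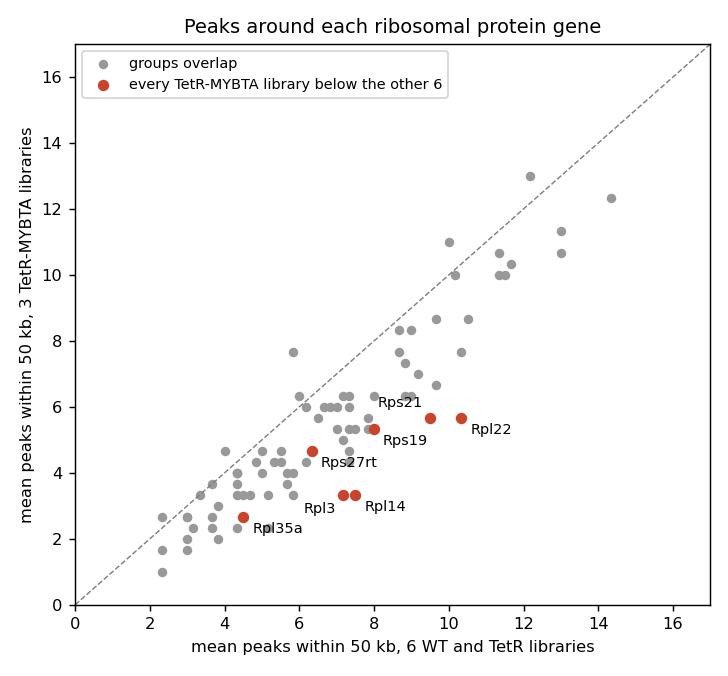
Mean number of peaks within 50 kb of each of 83 ribosomal protein genes in the 6 WT and TetR libraries (horizontal axis) and in the 3 TetR-MYBTA libraries (vertical axis); the dashed line marks equal numbers. Most genes lie below the line, and the 7 red, named genes had fewer peaks in every TetR-MYBTA library than in any other library.

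Paralogs differed from each other in these lists. Rpl3l, the striated-muscle paralog of Rpl3, had a gene-end peak in 9 of 9 libraries, but 0 of 9 had it at its start, so the peak lay at the far end, whereas Rpl22l1, the paralog of Rpl22, had its start peak in 9 of 9. Rpl10l and Rpl36al, copies of X-linked genes, also had a start peak in 9 of 9. For Rpl10l the peak centre was a median of 208 bp downstream of the start and ranged from -90 to 220 bp. The Rps27 family held all patterns: the standard Rps27 had a peak on its start window in 9 of 9 libraries, Rps27l had one only at a listed start inside its span, and Rps27rt had none.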

How the data were processed

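The submitters' processing notes name mm10, HOMER 4.11, Bowtie2, deepTools 3.5.5, Trim Galore 0.6.10, Picard and FastQC; a shift of reads for the Tn5 offset is not stated. The deposited lists hold 1 row per peak, with positions counted here from 1. Per the file headers, HOMER called peaks in each library separately at a false discovery rate of 0.001, requiring 4 times the tags of the local 10 kb, a local p-value of 0.0001 and 1 tag per position. The deposited score in column 5 is 1 in every row, so only presence and row order were used. The depth behind a single peak was not used here, and no interval is given for it.

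Peaks were joined to the RefSeq tables of GRCm38.p6 with Python 3.11.15, pandas 2.3.3 and numpy 2.4.6. A gene-end peak lies within 1 kb of either end of a gene. Places were compared with limma 3.58.1 in R 4.3.3 over 9285 genes with such a peak in all 9 libraries, 3 per line. Line was the factor, positive differences mean a higher place, and calls are at an adjusted p under 0.05. The code was tested on simulated data with 200 genes shifted by 0.8 in the 3 TetR-MYBTA libraries. Of these, 125 were called in the right direction, and 11 other genes were called. A gene without a call may therefore still differ. Only counts, means and SDs were used for the other results. The same settings were repeated on lists of equal length (45136 rows), the upper 50% of each list, gene-end distances of 0.5 and 2.5 kb, windows of 10 and 100 kb, counts per 50000 peaks, other scales, a replicate block, fewer genes, and without each library. Genes on chromosome 8 above 13 Mb were left out after the offset was seen.

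Ribosomal protein genes and comparison lists were chosen with earlier results of these data known. Named genes were those with a gene-end peak in 0 of 9 or in some libraries, the 5 highest and 5 lowest in place, up to 12 called by limma, up to 10 of those without overlap in the 50 kb count with the largest differences, and paralogs. Sequences are for up to 3 of the highest and up to 3 of the peak-poor genes, and Rps27 was added beside Rps27rt after its values were seen. A start is listed for 65 of the 85 genes. Some items are not reported here.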

Additional observations from a re-analysis of the deposited data

How the results depend on the processing

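Over 264 alternative values of 18 results, 177 stayed within 1 SD between replicates or, for counts of genes, within 1.5 times, 42 values moved by more than that SD, and 13 counts grew and 32 shrank by more than 1.5 times. The means per library of genes with a gene-end peak (WT, TetR, TetR-MYBTA) were 73.3 and 72.3 in the first 2 lines when lists were cut to equal length, 71.7, 68.3 and 64 in the upper 50%, 72.3 and 71.7 at 0.5 kb in WT and TetR, 77.3, 77 and 76 at 2.5 kb, 68.3, 68.3 and 66.3 without paralogs and Rps19bp1, and 67.3, 67.3 and 65.3 with the standard genes only, chosen after seeing the data. Start-side means were 53.3 and 52.7 with equal lists in WT and TetR, 52.3, 49.3 and 46 in the upper 50%, 53 and 52.7 at 0.5 kb, 57, 57 and 56.3 at 2.5 kb, 49, 49.3 and 47.7 without paralogs, 48, 48.3 and 46.7 with standard genes, and 58, 57.3 and 56.7 with any listed start, an alternative also chosen after seeing the data. Those alternatives change the genes, distance or rows counted by construction. Leaving out each library gave 74 to 74.5, 73.5 to 74 and 71.5 to 73.5 genes with a gene-end peak, and 54 to 54, 53.5 to 54 and 52 to 53 at the start.

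The ratio of peaks within 50 kb, TetR over WT, was 0.961 with equal lists, 0.938 in the upper 50% and 1.13 at 10 kb, and its percent was 0.874 in the upper 50% and 1.05 at 10 kb, so which of these lines had more depends on the setting; the cause was not tested. For TetR-MYBTA over the other 6 libraries the percent ratio was 0.872 with equal lists and 0.963 at 10 kb. Without each library the ratios ranged from 0.768 to 0.854 and 1.02 to 1.07 for numbers, and from 0.908 to 0.936 and 0.938 to 0.989 for percents. Genes without overlap of the peak count numbered 3 at 10 kb and 22 at 100 kb for TetR-MYBTA against the other 6 libraries. Against TetR they numbered 10 with equal lists, 13 in the upper 50%, 16 at 10 kb and 16 per 50000 peaks. Against WT they numbered 4 at 10 kb and 32 at 100 kb. Without each library they ranged from 8 to 16, 27 to 35, 22 to 28 and, for TetR against WT, 13 to 22. The share over all genes is given above for the main setting only. These changes therefore cannot be read as particular to ribosomal protein genes.

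Genes called by limma numbered 13, 21 and 27 on the log2 scale for TetR-MYBTA against the other 6 libraries, against WT, and TetR against WT (19.1%, 30.9% and 39.7% of the ribosomal protein genes, beside 23.8%, 33.9% and 27.1% of all genes), and 1, 2, 1 and 3 ranked within each chromosome, where fewer genes are ranked together. Without each library they ranged from 2 to 5, 2 to 7, 0 to 5 and 2 to 8. With the replicate number as a block, 3 were called against the other 6 libraries and 3 against TetR. Shares over all genes are not given without each library or with the block. Replicate numbers did not pair the libraries: the correlations of same-numbered libraries' deviations from their line means lay between -0.0372 and 0.0183, and not every library correlated best with its own number. Taking chromosome 8 as listed, chosen after seeing the data, changed none of these counts by over 1.5 times. The lists give no tag counts per peak, which limits every comparison to presence and order.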

Other observations

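Pseudogenes of ribosomal proteins were mostly without a peak at either end. Of 254 autosomal pseudogenes with a -ps symbol, 5 (1.97%) had a gene-end peak in all 9 libraries and 224 (88.2%) had none in any, and per library 3.54 to 6.3% had one. Over all 9109 autosomal pseudogenes the shares were 3.55% and 86.9%, with 6.03 to 8.17% per library. Among the 64 placed ribosomal protein genes with a listed start, 15 had an end of another coding gene within 1 kb of the start. A peak there can be shared by both genes.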
